A study of Mus musculus with 2 samples.

Results

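The genes of melanin synthesis and of the melanosome, the organelle in which pigment is made and stored, were followed here in the eye cups of mouse pups. The group holds 10 genes chosen by symbol, of which 9 are among the 18193 genes that the array annotation named singly. They are Tyr, Tyrp1, Dct, Pmel, Mlana, Oca2, Slc45a2, Slc24a5, Gpr143 and Mitf. Their probe sets (groups of short probes whose readings are summarised together) were all those that carried the member's symbol alone. This gave 15 probe sets for 9 genes, and no probe set carried the symbol of Slc24a5 alone.

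The series holds 2 arrays, each hybridised with total RNA pooled in equal amounts from 6 animals at postnatal day 13. The KO-labelled array holds RNA of Mfsd2a KO eye cups, and the wild-type array holds RNA of wild-type eye cups. An eye cup is what is left of the eye after cornea, lens and optic nerve are removed, so it holds retina, pigment epithelium, choroid and sclera. Mfsd2a encodes a transporter of lysophosphatidylcholine that carries docosahexaenoic acid into brain and eye. The labels give no strain, no coat colour, no sex, no deleted exon and no statement that the animals were littermates.

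Melanin is built from tyrosine by a short chain of enzymes inside the melanosome, on fibrils that the organelle lays down first. Pigment cells of the eye differ in origin: the pigment epithelium grows from the neural optic cup, and the melanocytes of choroid and iris come from the neural crest. Both use the same enzymes under the transcription factor MITF, and in humans inherited loss of most of these genes causes albinism, ocular or of skin and eye together.

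Every value is 1 intensity from 1 array on a linear scale, in arbitrary units, and each difference is the log2 value of the KO-labelled array minus that of the wild-type array. With 1 array per genotype the differences have no replicate check and were not tested. A gene counted here if its higher value was at or above a floor, the median of the array in question, which was 93.4 on the KO-labelled array and 94.2 on the wild-type array. Such measured genes numbered 11568, each read by its brightest probe set, with a median log2 difference of 0.014 and the central 95% between -0.206 and 0.234. A technical yardstick in the data was the spread of log2 differences among probe sets of the same gene, an SD of 0.0886 over 5201 genes. A further one was the spike-in control probe sets, which read added control RNA. All 9 of these were higher on the KO-labelled array, with a median log2 difference of 0.125. The deleted gene, Mfsd2a, read 244 on the KO-labelled array and 181 on the wild-type array in its 1 probe set (log2 difference 0.43), which goes against the label. A probe set outside the deleted part would check nothing, so every direction below rests on the label. Defining markers of the tissue were read at high intensity: Rpe65, the isomerase of the pigment epithelium, at 3301 on the KO-labelled array and 3484 on the wild-type array, and Gnat1, the rod transducin, at 15928 on the KO-labelled array and 16823 on the wild-type array.

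All 9 measured members were lower on the KO-labelled array, by log2 differences between -0.285 and -0.023, with a median of -0.15. Over all measured genes 42.4% lay below 0, 55.8% above, and 206 genes were equal on the 2 arrays. The differences were small. Only Mlana reached 1.2-fold (1 of 9 members, against 1.17% of all measured genes), 5 of 9 reached 1.1-fold (against 6.6%), and 0 of 9 reached 1.5-fold (against 0.0864%). Of the 13 member probe sets above the floor 12 lay below 0, against 42.1% of all probe sets above the floor. All 9 genes stood above the floor on both arrays, so none entered through only one of them. In bulk tissue, fewer cells of a type and less RNA per cell cannot be told apart. The members were chosen with earlier results of these arrays known, so these counts describe the 2 pools only.

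**Figure D1:**
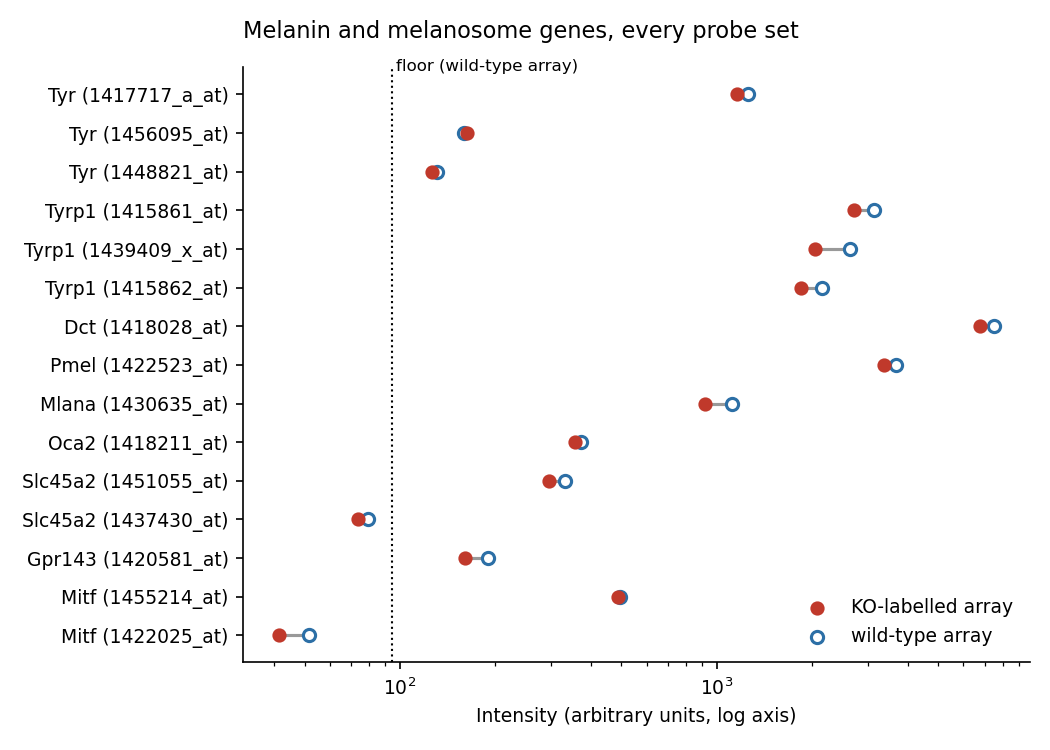
Intensity (log axis, arbitrary units) of each of the 15 member probe sets, with a filled point for the KO-labelled array and an open point for the wild-type array. The filled point lies left of the open one in 14 of 15 probe sets, the exception being a Tyr probe set, and 2 probe sets lie below the floor.

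The members are taken by role, starting with the enzymes of melanin synthesis, Tyr, Tyrp1 and Dct, which form a protein family. Their start regions are shown because the brightest probe sets of all 3 genes lay on the same side and their windows hold letters that MITF is known to bind, the E-box CATGTG. The windows come from RefSeq (GRCm38.p6), each running from 250 bases before to 50 bases after the annotated start, 5′ to 3′ on the gene's strand, with every CATGTG, or CACATG where it lies on the other strand, in capitals. The Tyr window is chr7:87493463-87493762 on the minus strand, the Tyrp1 window chr4:80833963-80834262 on the plus strand and the Dct window chr14:118052197-118052496 on the minus strand.
Tyr: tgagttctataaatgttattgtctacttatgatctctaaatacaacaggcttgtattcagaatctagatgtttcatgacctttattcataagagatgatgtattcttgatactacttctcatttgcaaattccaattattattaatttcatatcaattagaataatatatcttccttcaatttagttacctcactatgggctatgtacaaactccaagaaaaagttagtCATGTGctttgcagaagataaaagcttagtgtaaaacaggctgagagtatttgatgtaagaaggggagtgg
Tyrp1: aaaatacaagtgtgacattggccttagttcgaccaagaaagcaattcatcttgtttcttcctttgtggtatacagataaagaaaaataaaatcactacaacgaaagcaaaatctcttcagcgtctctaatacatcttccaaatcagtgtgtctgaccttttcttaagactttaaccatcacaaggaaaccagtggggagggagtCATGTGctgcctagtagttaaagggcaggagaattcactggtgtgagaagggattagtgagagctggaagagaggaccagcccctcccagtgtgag
Dct: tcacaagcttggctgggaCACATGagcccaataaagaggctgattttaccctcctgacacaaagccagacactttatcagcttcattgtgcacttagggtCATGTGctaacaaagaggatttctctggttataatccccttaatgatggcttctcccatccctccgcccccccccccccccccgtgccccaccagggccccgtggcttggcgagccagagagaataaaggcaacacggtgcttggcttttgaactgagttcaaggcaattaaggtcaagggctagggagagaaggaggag

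The motif begins 21 bases before the annotated start in Tyr and 46 bases before it in Tyrp1. In Dct it begins 150 bases before the start, and a copy on the other strand begins 232 bases before it. Of the 10 members 6 had a window in the table, 8 windows in all, of which 3 belong to Mitf. CATGTG on either strand stood in 5 of these 8 windows, against 14.2% of all 32851 windows of 300 bases. These were the windows of 5 of the 6 genes (Tyr, Tyrp1, Dct, Oca2 and Slc24a5), and none of the 3 Mitf windows held it. The longer TCATGTG, which contains CATGTG, stood in 4 of the 8 windows (those of Tyr, Tyrp1, Dct and Slc24a5), against 3.77% of all windows. The longest run around CATGTG that the Tyr and Tyrp1 windows share is AGTCATGTGCT, which contains both shorter motifs and is known as the M-box. It stood in 7 of the 32851 windows on either strand (0.0213%), these 2 genes included by construction. A match of letters is a description of the sequence and does not show binding.

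Tyr encodes tyrosinase, the rate-limiting enzyme, which oxidises tyrosine to dopaquinone. Its brightest probe set read 1156 on the KO-labelled array and 1252 on the wild-type array, 7.6% lower (log2 difference -0.11). A dimmer probe set read 163 on the KO-labelled array and 159 on the wild-type array (0.037). The dimmest read 126 on the KO-labelled array and 131 on the wild-type array (-0.058). The 3 probe sets of Tyr therefore did not share a direction. The brightest has a name ending in _a_at, the mark for probes shared by transcripts of the same gene, and with such probe sets left out Tyr stood at 0.037. These shifts are about as large as the spread between probe sets of a gene.

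Tyrp1 encodes tyrosinase-related protein 1, which in the mouse oxidises an indole carboxylic acid late in eumelanin synthesis. Its brightest probe set read 2714 on the KO-labelled array and 3135 on the wild-type array, 13.5% lower (log2 difference -0.21). A further probe set read 1842 on the KO-labelled array and 2140 on the wild-type array (-0.22). The probe set with a name ending in _x_at, which marks possible cross-hybridisation, read 2036 on the KO-labelled array and 2641 on the wild-type array, 22.9% lower (-0.38). All 3 probe sets of Tyrp1 were thus lower, and the first 2 were nearly equal in size. Of all measured genes 2.4% had a difference as low as that of its brightest probe set.

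Dct encodes dopachrome tautomerase, which acts between the other enzymes of the family and turns dopachrome into the carboxylated indole. Its only probe set read 6761 on the KO-labelled array and 7495 on the wild-type array, 9.8% lower (log2 difference -0.15). Dct stood at the median of the 9 members, and 5.7% of measured genes had a difference as low.

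Pmel encodes the protein whose cleaved fragments form the fibrils on which melanin is deposited. It read 3360 on the KO-labelled array and 3682 on the wild-type array, 8.7% lower (log2 difference -0.13). Mlana encodes a small membrane protein, known as MART-1 in humans, that assists the maturation of PMEL. It read 918 on the KO-labelled array and 1118 on the wild-type array, 17.9% lower (-0.285, or 1.22-fold). Mlana had the lowest difference of the 9 members, and 0.9% of measured genes lay as low. Each of these genes had 1 probe set, so neither value could be set beside a repeat reading.

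Among the transporters of the melanosome membrane, Oca2, mutated in the pink-eyed dilution mouse and involved in chloride conductance and luminal pH, read 356 on the KO-labelled array and 374 on the wild-type array, 5.0% lower (log2 difference -0.073). That is within the spread between probe sets of a gene. Slc45a2, a membrane transporter mutated in the underwhite mouse, read 296 on the KO-labelled array and 332 on the wild-type array, 10.8% lower (-0.17). Its dimmer probe set, below the floor on both arrays, read 73.7 on the KO-labelled array and 79.4 on the wild-type array (-0.11). Both probe sets of Slc45a2 lay on the same side. Slc24a5, a potassium-dependent sodium-calcium exchanger of the pigment cell, was not analysed here beyond its start region.

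Gpr143, the ocular albinism receptor, sits on the melanosome membrane and bears on melanosome size and number. It read 161 on the KO-labelled array and 190 on the wild-type array, 15.3% lower (log2 difference -0.24). It had the lowest difference after Mlana, and 1.7% of measured genes lay as low. It had 1 probe set.

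Mitf, the transcription factor of the pigment lineage, was the member closest to 0. Its brightest probe set read 486 on the KO-labelled array and 494 on the wild-type array, 1.6% lower (log2 difference -0.023), and 33.6% of measured genes lay as low. A dim probe set, below the floor on both arrays, read 41.5 on the KO-labelled array and 51.7 on the wild-type array (-0.32). The 2 probe sets share a sign and differ in size by more than the spread between probe sets of a gene. Mitf has several promoters and isoforms, and which of them each probe set reads was not analysed here.

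**Figure D2:**
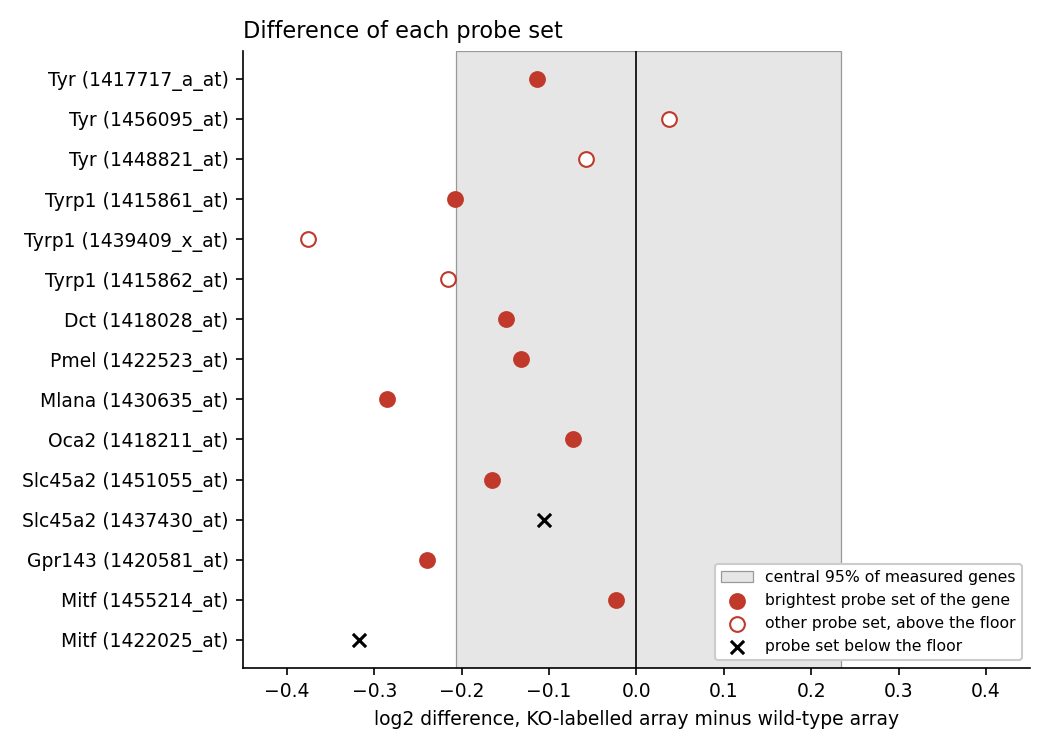
log2 difference (KO-labelled array minus wild-type array) of each member probe set, with filled circles for the brightest probe set of a gene, open circles for others above the floor and crosses for those below it. The grey band is the central 95% of measured genes (-0.206 to 0.234). The brightest probe sets of Mlana, Gpr143 and, at its edge, Tyrp1 (-0.208) lie left of it, and those of Mitf and Oca2 lie closest to 0.

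Set against the spread between probe sets of a gene, 7 of the 9 members were lower by more than 0.0886, against 13.4% of all measured genes. The other 2 (Oca2 and Mitf) differed by less. That spread comes from probe sets read on the same 2 arrays. It therefore does not measure variation between pools or between arrays, and passing it does not show a difference between genotypes. Only 4 members had more than 1 probe set, so for the other 5 that spread is borrowed from other genes. Among the 2654 measured genes that reached 1000 units on either array, as 5 of the members did, 42.2% lay below 0 and 0.867% were at least 1.2-fold lower, close to the shares over all measured genes.

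**Figure D3:**
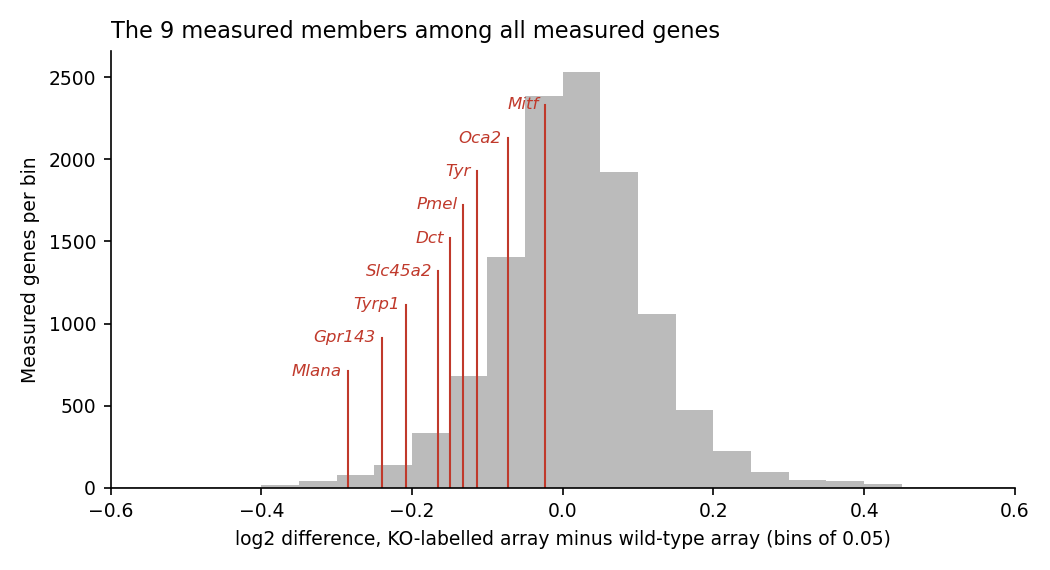
Number of measured genes per bin of log2 difference (bars, bins of 0.05, range -0.6 to 0.6 shown) with the 9 measured members as labelled lines whose height has no meaning. All lines lie left of 0, between Mlana at -0.285 and Mitf at -0.023, within the left side of the distribution.

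The genes that act with the members were described by lists written from general knowledge, with earlier results of these arrays known. Of 9 further proteins of the pigment organelle and of PMEL processing, 6 were measured, with a median log2 difference of 0.057. Of these 2 lay below 0 (against 42.4% of all measured genes), and 0 were at least 1.2-fold lower or higher. Gpnmb, a relative of Pmel that is also expressed by macrophages, read 858 on the KO-labelled array and 975 on the wild-type array (-0.185). Mfsd12, a transporter that brings cystine into melanosomes, read 465 on the KO-labelled array and 448 on the wild-type array (0.054). Ctns, the lysosomal cystine exporter, read 127 on the KO-labelled array and 113 on the wild-type array (0.16). Gpnmb thus stood with the members, and most of the rest of its list lay above 0.

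The machinery that sorts cargo to the melanosome, the BLOC and AP-3 complexes and Rab proteins, serves lysosomes and related organelles of many cells. Of its 22 genes 18 were measured, 7 below 0 (against 42.4% of all measured genes), 10 above (against 55.8%) and 1 equal. The median log2 difference was 0.008, and 0 were at least 1.2-fold lower or higher. Rab38, the Rab protein of the chocolate mouse that carries tyrosinase and TYRP1 to the organelle, had the lowest value: 352 on the KO-labelled array and 387 on the wild-type array (-0.14), with its other probe set at -0.093. Hps4, part of BLOC-3, had the highest, 547 on the KO-labelled array and 508 on the wild-type array (0.11). Bloc1s2 read 652 on the KO-labelled array and 637 on the wild-type array (0.035), and Bloc1s3 read 203 on both arrays. The list lay on both sides of 0.

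Of 7 genes that move melanosomes along the cytoskeleton 6 were measured, 5 of them below 0 (against 42.4% of all measured genes), with a median log2 difference of -0.148 and 0 at least 1.2-fold lower. The median was -0.116 without Mlph, which reached the floor on the wild-type array alone, -0.101 with the mean of probe sets and -0.091 at a floor of the 70th percentile, where 4 genes were left. Mlph, the adaptor that links RAB27A to myosin Va in melanocytes, read 87.8 on the KO-labelled array, under the floor there, and 103 on the wild-type array (-0.23). Myrip, which does the same for myosin VIIa in the pigment epithelium and the retina, read 974 on the KO-labelled array and 1131 on the wild-type array (-0.215). Rab27a read 149 on the KO-labelled array and 169 on the wild-type array (-0.18), and its other probe set above the floor was at -0.079. Myo5a read 925 on the KO-labelled array and 1002 on the wild-type array (-0.12), with 3 probe sets from -0.13 to 0.028. Mreg read 1295 on the KO-labelled array and 1357 on the wild-type array (-0.067). Myo7a, the gene of myosin VIIa, was the only measured gene of the list above 0, at 560 on the KO-labelled array and 540 on the wild-type array (0.052).

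Regulators of pigment cells did not share a direction. Of 16 listed 12 were measured, 7 below 0 and 5 above (against 42.4% and 55.8% of all measured genes). The median log2 difference was -0.012, and 0 were at least 1.2-fold lower or higher. Edn3, the endothelin that supports melanocyte precursors, read 189 on the KO-labelled array and 215 on the wild-type array (-0.18), and its 4 probe sets were all lower, from -0.29 to -0.16. Tfap2a, a transcription factor of neural crest and amacrine cells, read 638 on the KO-labelled array and 563 on the wild-type array (0.18), or 0.037 in its other probe set above the floor. Sox10, a factor of the neural crest lineage that activates Mitf, read 297 on the KO-labelled array and 299 on the wild-type array (-0.012), and its other probe set above the floor was at -0.215.

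Markers of the 2 pigmented cell types were then read without any pigment gene. Of 15 pigment epithelium markers 14 were measured, 11 below 0 (against 42.4% of all measured genes) and 4 at least 1.2-fold lower (against 1.17%), with a median log2 difference of -0.088 and 0 at least 1.2-fold higher. Their summed intensity was 40421 on the KO-labelled array and 42734 on the wild-type array, 5.4% lower. A large part of that sum is Ttr, the brightest of the list, at 16010 on the KO-labelled array and 15804 on the wild-type array (0.019). The sum therefore reads the other markers only in part. Rdh5, a retinol dehydrogenase of the visual cycle, read 2154 on the KO-labelled array and 2722 on the wild-type array (-0.34). Lrat, which esterifies retinol, read 1308 on the KO-labelled array and 1621 on the wild-type array (-0.31), and its other probe set was at -0.53. Rpe65 differed by -0.078 and Rlbp1, the retinaldehyde carrier shared with Mueller glia, by -0.030, at 6018 on the KO-labelled array and 6145 on the wild-type array. The pigment epithelium list thus held both shifts larger than those of the melanin genes and shifts near 0.

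Of 6 choroidal melanocyte markers, 5 of which also stand in the list of regulators, 4 were measured, 3 below 0 (against 42.4% of all measured genes). The median was -0.012 and the range ran from -0.097 to 0.030. Their sum was 1077 on the KO-labelled array and 1105 on the wild-type array, 2.5% lower. Kit, the receptor of melanocyte precursors, read 188 on the KO-labelled array and 184 on the wild-type array (0.030), and Ednrb, the endothelin receptor, 395 on the KO-labelled array and 422 on the wild-type array (-0.097). Pax3 and Erbb3 were below the floor on both arrays. Kit, Ednrb and Erbb3 are also expressed by neurons, glia or vessels, so this list reads melanocytes only in part.

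Markers of other eye tissues differed between the pools as well, and their part in the result for the melanin genes was not tested. Cornea and conjunctiva markers were lower in all 6 measured of 8 (against 42.4% of all measured genes), 5 of them at least 1.2-fold (against 1.17%). Their median was -0.46, and their sum was 1111 on the KO-labelled array and 1461 on the wild-type array, 24.0% lower. They were led by Aldh3a1, the corneal aldehyde dehydrogenase (92.7 on the KO-labelled array and 142 on the wild-type array, -0.62), which was under the floor on the KO-labelled array and counted through the wild-type array alone, and Krt14, a basal keratin (121 on the KO-labelled array and 178 on the wild-type array, -0.56). Without Aldh3a1 the median of the other 5 was -0.398. Krt5, a further basal keratin, read 265 on the KO-labelled array and 333 on the wild-type array (-0.33), and Krt12, the corneal keratin, read 178 on the KO-labelled array and 192 on the wild-type array (-0.115). Ciliary body and iris markers, a border tissue that itself carries pigment, had 3 of 5 measured. Optc, the proteoglycan opticin, was at 185 on the KO-labelled array and 233 on the wild-type array (-0.33), Wfdc1 at -0.15 and Zic1 at 0.076. The sum of these markers was 736 on the KO-labelled array and 793 on the wild-type array, 7.2% lower. Skeletal muscle markers lay below 0 in 5 of the 7 measured (against 42.4% of all measured genes), with a median of -0.20, or -0.050 at the higher floor. Ckm, muscle creatine kinase, was at -0.34, Tnnt3, a fast troponin, at -0.252 and Acta1, skeletal actin, at 0.029. Myh1, a skeletal myosin gene, went the other way, at 572 on the KO-labelled array and 492 on the wild-type array (0.217). Its other probe set above the floor was at 0.111, and Myh2 was below the floor on both arrays. The muscle list summed to 3029 on the KO-labelled array and 3163 on the wild-type array, 4.3% lower.

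Lens markers went the other way. Of 8 listed 5 were measured, 4 of them above 0 (against 55.8% of all measured genes) and 2 at least 1.2-fold higher (against 1.79%). Their median was 0.23, and their sum was 1962 on the KO-labelled array and 1736 on the wild-type array. Cryga and Cryaa, crystallins of the lens, led them at 0.40 and 0.35, while Cryba1 differed by 0.039. All the measured lens markers were crystallin genes, and Lim2, Mip and Bfsp1 were below the floor on both arrays. This list therefore reads the lens through crystallins alone. Rod markers had 6 of 9 measured below 0 (against 42.4% of all measured genes) and a median of -0.027. Their sum was 79900 on the KO-labelled array and 80980 on the wild-type array, 1.3% lower. Pde6a, a subunit of the rod phosphodiesterase, read 1961 on the KO-labelled array and 2158 on the wild-type array (-0.138). Fibroblast markers of sclera and choroid had 4 of 8 below 0 (against 42.4% of all measured genes) and a median of -0.015. Their sum was 15341 on the KO-labelled array and 16252 on the wild-type array, 5.6% lower. Dcn, the proteoglycan decorin, read 4276 on the KO-labelled array and 4770 on the wild-type array (-0.16), and Ogn, the proteoglycan osteoglycin, 664 on the KO-labelled array and 751 on the wild-type array (-0.176). The collagen genes Col1a1 and Col1a2 differed by 0.032 and -0.061, and the other Col1a1 probe set was at -0.093. No marker had an intensity of 0 on either array, but neither did any probe set. The lowest values were 5.07 on the KO-labelled array and 5.15 on the wild-type array, so this does not show that a tissue was present. With 1 pool per genotype, genotype, dissection, the make-up of the pools and array handling cannot be told apart for any of these differences.

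**Figure D4:**
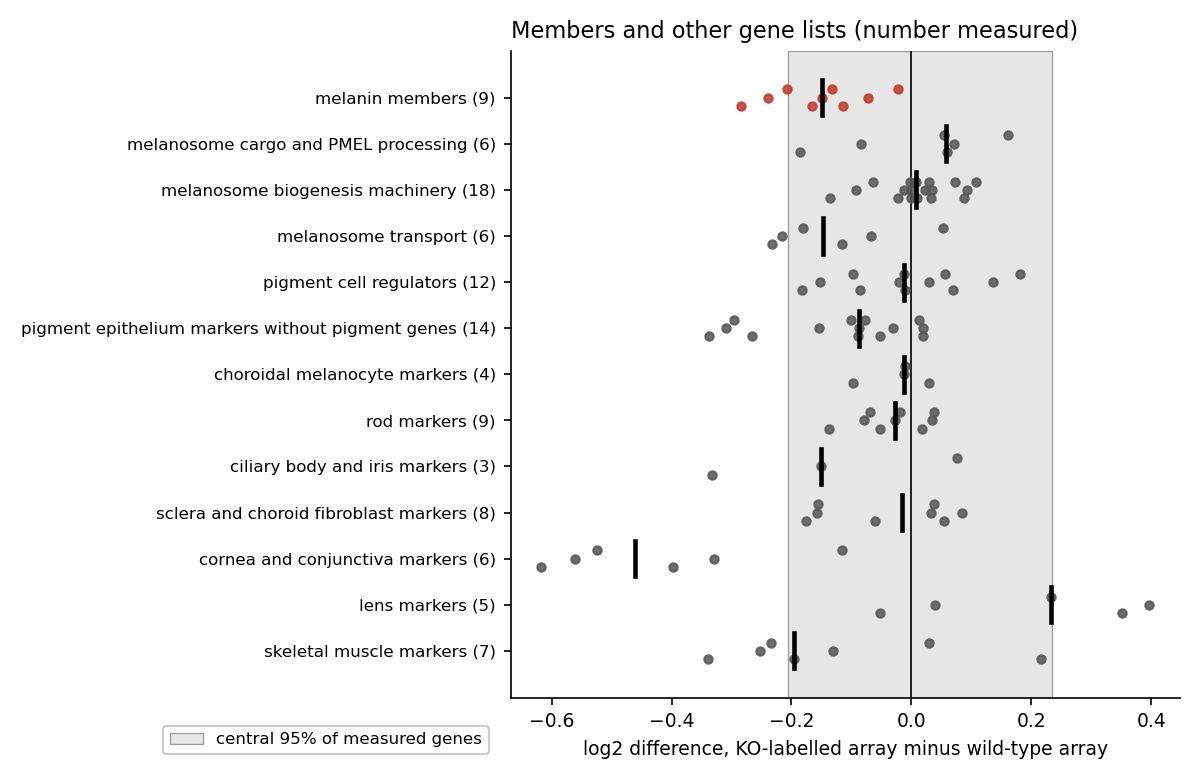
log2 difference (KO-labelled array minus wild-type array) of each measured gene of the 13 lists, with a black bar at each list's median and the number measured in brackets; the grey band is the central 95% of measured genes. The 9 melanin genes (top, red) all lie left of 0 with a median of -0.15. The median of melanosome transport lies at -0.148, that of the biogenesis machinery at 0.008, and cornea markers reach -0.62 in Aldh3a1, which was under the floor on the KO-labelled array.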

How the data were processed

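The deposited values are intensities of 45101 probe sets on 2 Affymetrix Mouse 430 2.0 arrays, 1 per genotype, each of RNA pooled from 6 animals per the labels. Per the submitters' processing notes, the authors used Partek 6.6 and RMA (background correction, quantile equalisation and summary of probes), with settings not given in the sources used here. Values were linear, judged by their range and medians (93.6 on the KO-labelled array and 94.4 on the wild-type array). The method compresses differences at low intensity and takes away any overall difference between arrays. No scanner file, detection call or scan date was used here, and precision is limited by the number of arrays.

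Symbols came from the platform annotation; all 9 members with a probe set matched RefSeq (GRCm38.p6) by Entrez identifier. Base 2 logarithms were taken from the deposited intensities with no pseudocount. Each gene was read by its brightest probe set (mean of both arrays), and the floor was the median of each array after setting 64 control probe sets aside. Counts used fixed sizes of 1.1-, 1.2- and 1.5-fold. The members and lists were chosen with earlier results of these data known. The text names Mfsd2a, all members with every probe set and, of each list, the first 2 measured genes and the 2 with the largest absolute difference; a few further list members were named after their values were seen. Alternatives were the mean of probe sets, a floor at the 70th percentile, no floor, leaving out probe sets ending in _s_at, _x_at or _a_at, removing a loess trend (span 0.3, 3 iterations), centring on the median, a pseudocount of 16 and, chosen after seeing the data, a floor that both arrays must reach. The software was numpy 2.4.6, statsmodels 0.14.6, pandas 2.3.3 and matplotlib 3.10.9 under Python 3.11.15, and the steps were tested on simulated data.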

Additional observations from a re-analysis of the deposited data

How the results depend on the processing

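No paired analysis was possible because there is 1 array per genotype. The median of the melanin genes stayed between -0.163 and -0.14 under the 8 alternatives, and 8 or 9 members lay below 0. The count was 8 at the higher floor, where Gpr143 was not measured, and without _s_at, _x_at and _a_at probe sets, where Tyr stood at 0.037. Of 71 alternative values of single members 70 were below 0, but many of these could not have changed sign. The floors and the pseudocount leave a probe set on its side of 0. A member with 1 probe set also keeps it under the mean of probe sets and without the marked probe sets. The count is therefore no measure of how firm the directions are. The count of 1 member at least 1.2-fold lower was 2 with the mean of probe sets, where Tyrp1 joined Mlana, 5 at the size of 1.1-fold and 0 at 1.5-fold. Some lists moved by more than the spread between probe sets of a gene: ciliary body and iris to 0.076 at the 70th percentile floor, where 1 gene was left, cornea to -0.36 there (2 genes) and with no floor (8 genes), lens to 0.134 with no floor and 0.136 at the higher floor or without the marked probe sets, and skeletal muscle to -0.050 at the higher floor (4 genes). Other list medians ran from -0.181 to -0.091 for melanosome transport, from -0.086 to -0.011 for regulators and from -0.009 to 0.018 for the biogenesis machinery. A floor that both arrays must reach was added after seeing the data; it left the melanin median at -0.149 with all 9 members. The floors change which genes are counted; no other cause was tested. Intensities below the floor limit the dim probe sets of Mitf and Slc45a2.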

Other observations

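Tyrp1 lies on chromosome 4, as does the deleted gene Mfsd2a, while the other measured members lie on other chromosomes. In RefSeq order 348 protein-coding genes stand between them, of which 161 were measured, with a median log2 difference of 0.021. Of these 161 genes 7 were lower on the KO-labelled array by 1.2-fold or more, against 135 of all 11568 measured genes (1.17%). Genes at least 1.2-fold higher were not counted in this interval. This interval was chosen after the values were seen.

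The 7 start regions with the M-box AGTCATGTGCT on either strand include, beside those of Tyr and Tyrp1, that of C1qb, a complement gene of microglia. The other 4 belong to predicted genes known only by numbered Gm symbols.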
